A study of Mus musculus with 2 samples.

Results

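The genes described here are 10 members of the Notch pathway in the mouse lung at P14. They are the ligands *Jag1*, *Jag2* and *Dll1*, the receptors *Notch1*, *Notch2* and *Notch3*, and the target genes *Hes1*, *Hey1*, *Hey2* and *Heyl*. The members were taken by symbol from the 32285 genes of the count files, where each of the 10 symbols occurs on 1 row. Notch receptors are cell surface proteins that are cut when a ligand on a neighbouring cell binds them, and the released intracellular part enters the nucleus and acts with the DNA-binding protein RBPJ. Genes of the Hes and Hey families, which encode transcriptional repressors, are among the best known direct targets. In the lung, the pathway is known for the choice between secretory and ciliated fates in the airway epithelium and for the recruitment and upkeep of pericytes and vascular smooth muscle, where *Notch3* is a typical mural cell receptor.

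Single-cell RNA-seq was made from sorted live lung cells of 1 control mouse and 1 *Gli1 HHIPCKO* mouse at P14, to examine the lung after loss of the Hedgehog-interacting protein gene *Hhip* from *Gli1*-expressing cells. Stromal cells negative for CD45, CD31 and CD326 were combined with CD326-positive epithelial cells at 3 to 1. Both mice carried *Gli1 creER/+* and *Hhip flox/flox*. The control mouse was given oil, and the *Gli1 HHIPCKO* mouse tamoxifen at 100 mg/kg per day, on each of 3 days from birth. The *Gli1* promoter drives the tamoxifen-dependent Cre, so that recombination was directed to cells that expressed *Gli1* at the time of injection, and the control carried the same alleles without tamoxifen. Each condition had 1 mouse, so no replicate check exists and no test was made. All intervals are 95% intervals for counting error only and do not hold the spread between mice.

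The control library held 10999 cell barcodes and 43291709 UMIs, and the *Gli1 HHIPCKO* library 12350 barcodes and 52338969 UMIs. After filtering, 10917 and 12115 cells were kept, with medians of 3537 and 3774 UMIs. The kept cells of the libraries shared 185 barcodes. Cells with a shared barcode fell in the same class in 15.1% of pairs, against 12.4% over all pairs of a control and a *Gli1 HHIPCKO* cell. *Hhip* was at 332 UMIs per 1e+06 UMIs (CPM) in the control and 89.3 CPM in the *Gli1 HHIPCKO* library, although the counted ends were not placed relative to the deleted part of the gene. *Xist*, which is transcribed from the inactive X chromosome of females, had 12 UMIs in the control and 14062 UMIs in the *Gli1 HHIPCKO* library. The sex of the mice therefore differed, and sex and treatment cannot be told apart in any ratio given here.

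Cells were grouped by clustering without the 10 members, and clusters were named from marker genes with the suffix "-like". The 13 named classes were pericyte-, peribronchial-, myofibroblast-, alveolar fibroblast-, adventitial fibroblast-, mesothelial-, AT2-, ciliated-, club-, endothelial-, immune-, Schwann- and red cell-like cells. Alveolar and ductal myofibroblasts (ALMFs and DMFs) are given joined, as myofibroblast-like cells, and apart, and the clusters that hold them were filled unequally by the libraries. A DMF-like cluster led by *Thbs2* held 99 control and 1869 *Gli1 HHIPCKO* cells, and a DMF-like cluster led by *Enpp2* held 1168 control and 28 *Gli1 HHIPCKO* cells. The ALMF-like cluster held 1039 control and 230 *Gli1 HHIPCKO* cells. A cluster between these types, led by the immediate early and stress genes *Socs3*, *Egr1* and *Junb*, was left unsplit and held 504 and 636 cells. It had no ALMF or DMF marker among its 10 leading genes and was put in the myofibroblast-like class by its scores.

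Among the mesenchymal cells, 4 clusters without a name are given by their leading genes. Of these, the cluster led by *Prss23* also had *Ccn5* and *Map3k7cl* among its leading genes, and the cluster led by *Actc1* had *Timp4*, *Cnn1* and *Map3k7cl*. Markers of airway and of vascular smooth muscle were mixed among the leading genes of the latter, so neither name was given. Leading genes of the cluster led by *Dpep1* included *Rbp4* and *Pla2g7*, and the cluster led by *Lamc3* had *C1qtnf3*, *Wif1* and *Adh7*. Other cells, without a class, made up 17.9% of control cells and 15.7% of cells in the *Gli1 HHIPCKO* library. Below, the order of levels is that of both libraries pooled, over the 13 named classes and these 4 clusters, and leaves out the other cells.

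The ligand *Jag1*, a membrane-bound activator of Notch receptors, was highest among the named classes in ciliated-like cells. Its level there was 155 CPM (122 to 194) in the control and 137 CPM (99.7 to 184) in the *Gli1 HHIPCKO* library. This level was apart from that of the next class in the order, and all neighbours further down overlapped. Among the cells left out of the classes, an airway cluster led by *Dnah12*, with 70 and 29 cells, had *Jag1* at 306 and 127 CPM. In AT2-like cells, *Jag1* was at 21.3 CPM in the control and 16.1 CPM in the *Gli1 HHIPCKO* library. These cells were so numerous that they held 40.2% of all *Jag1* UMIs, against 8.26% in ciliated-like cells. Red cell-like cells, which should lack the gene, were at 3.40 and 3.48 CPM. At least 1 *Jag1* UMI was seen in 53.2% of control and 46.9% of *Gli1 HHIPCKO* ciliated-like cells, with median depths of 4211 and 4584.5 UMIs. The share in red cell-like cells was 1.86% and 1.52% at medians of 4979 and 5261.5 UMIs. With each cell thinned to 2000 UMIs, the ciliated-like shares were 36.2% and 21.8%, and the red cell-like shares 0.00% and 0.543%.

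In adventitial fibroblast-like cells, *Jag1* was at 25.3 CPM (17.5 to 35.3) in the control and 11.3 CPM (6.71 to 17.9) in the *Gli1 HHIPCKO* library. The log2 ratio of *Gli1 HHIPCKO* over control was -1.16 (-2.07 to -0.29), from 34 and 18 UMIs, and -0.55, short of 1.5-fold, at Leiden resolution 0.5. In AT2-like cells the log2 ratio was -0.41 (-0.65 to -0.17), short of 1.5-fold. It was -0.74 (-1.20 to -0.26) in their cluster led by *Lcn2*, past 1.5-fold, and -0.24 (-0.57 to 0.08) in that led by *Ager*. The ratio intervals of pericyte-like and myofibroblast-like cells included 0.

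*Jag2*, a second ligand of the Jagged family, had levels in ciliated-like cells of 67.3 CPM (control) and 74.8 CPM (*Gli1 HHIPCKO*). Endothelial-like cells, of which few remained after the CD31 sort, were at 75.8 and 43.4 CPM. The intervals of these classes overlapped in both libraries, and the highest level in a mesenchymal class was 3.88 and 4.53 CPM, in pericyte-like cells. In AT2-like cells *Jag2* was at 4.01 and 4.23 CPM, with a log2 ratio of 0.08 (-0.44 to 0.60). *Dll1*, a Delta-like ligand, had 60 UMIs in all kept cells. Its highest levels were 37.9 and 27.2 CPM in endothelial-like cells, followed by 10.7 and 5.05 CPM in mesothelial-like cells. Pericyte-like cells had no *Dll1* UMI, which allows a level of up to 3.88 CPM in the control and 2.27 CPM in the *Gli1 HHIPCKO* library. *Dll1* reached 50 UMIs, the minimum for reading a ratio, in no class.

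The receptor *Notch3* was highest in pericyte-like cells, at 1214 CPM (1137 to 1294) in the control and 855 CPM (806 to 907) in the *Gli1 HHIPCKO* library. Next was the cluster led by *Prss23* with 574 and 624 CPM, and the cluster led by *Actc1* with 168 and 209 CPM. These 3 groups were apart from each other and from all classes below them beyond counting error in both libraries. Pericyte-like cells held 45.4% of all *Notch3* UMIs and the cluster led by *Prss23* 20.5%. The cluster led by *Dpep1* had 28.4 and 32.1 CPM and adventitial fibroblast-like cells 36.4 and 24.5 CPM, so that their order turned between the libraries. AT2-like cells were at 1.16 and 0.952 CPM.

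A *Notch3* UMI was found in 82.4% of control and 72.3% of *Gli1 HHIPCKO* pericyte-like cells, at median depths of 1714 and 1808 UMIs. In AT2-like cells the share was 0.540% and 0.570% at medians of 4828 and 5731 UMIs. Thinned to 2000 UMIs, which left 168 and 282 pericyte-like cells, the shares were 85.1% and 75.5%, against 0.175% and 0.218% in AT2-like cells. *Notch3* was thus found in most pericyte-like cells of both libraries, with a lower level and share in the *Gli1 HHIPCKO* library. The log2 ratio in pericyte-like cells was -0.50 (-0.63 to -0.38), short of 1.5-fold, and in the cluster led by *Prss23* it was 0.12 (-0.07 to 0.31). In myofibroblast-like cells, the low level of *Notch3* was 10.3 CPM in the control and 6.12 CPM in the *Gli1 HHIPCKO* library. The log2 ratio there was -0.76 (-1.28 to -0.24), and it fell short of 1.5-fold in 3 of 10 alternatives. Red cell-like cells were at 6.81 and 8.70 CPM, and their intervals overlapped with those of myofibroblast-like cells in both libraries, so this ratio was read near the background.

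*Notch2*, a receptor with broad expression in stroma, was also highest in pericyte-like cells, at 278 CPM (242 to 318) and 287 CPM (259 to 317). This level was apart from that of the next class in both libraries. Mesothelial-like cells came next in the pooled order, with 102 and 80.8 CPM. Alveolar fibroblast-like cells followed them there, although their level was higher in either library, at 119 and 82.5 CPM. Below them, myofibroblast-like cells had 53.0 and 45.7 CPM and AT2-like cells 30.9 and 26.1 CPM. Red cell-like cells were at 13.6 and 20.9 CPM. *Notch2* was above this background in all mesenchymal classes, although the interval of peribronchial-like cells, at 53.1 and 37.7 CPM, overlapped with it in the *Gli1 HHIPCKO* library. Its log2 ratio was 0.75 (0.17 to 1.36) in the cluster led by *Prss23*, from 52.3 to 88.3 CPM, and 0.76 (0.15 to 1.36) in the cluster led by *Lamc3*, from 66.3 to 112 CPM. The latter was 0.48, short of 1.5-fold, as the mean over cells and 1.57 after thinning. In alveolar fibroblast-like cells it was -0.53 (-0.84 to -0.22), short of 1.5-fold.

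*Notch1*, the receptor best known from endothelium and blood lineages, was at 235 CPM (202 to 272) in control and 192 CPM (169 to 217) in *Gli1 HHIPCKO* pericyte-like cells. Endothelial-like cells had 193 and 136 CPM, or 255 and 158 CPM without their cluster that also held AT1 markers, and Schwann-like cells, with 26 and 25 cells, had 137 and 108 CPM. The intervals of these 3 classes overlapped. Ciliated-like cells had 77.5 and 74.8 CPM, alveolar fibroblast-like cells 31.4 and 41.6 CPM, and red cell-like cells 1.70 and 6.09 CPM. In the cluster led by *Prss23*, *Notch1* was at 48.2 CPM (33.6 to 67.0) in the control and 90.8 CPM (71.4 to 114) in the *Gli1 HHIPCKO* library. The log2 ratio was 0.91 (0.32 to 1.54), so that *Notch1* and *Notch2* were both past 1.5-fold in this cluster while *Notch3* was not.

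**Figure D1:**
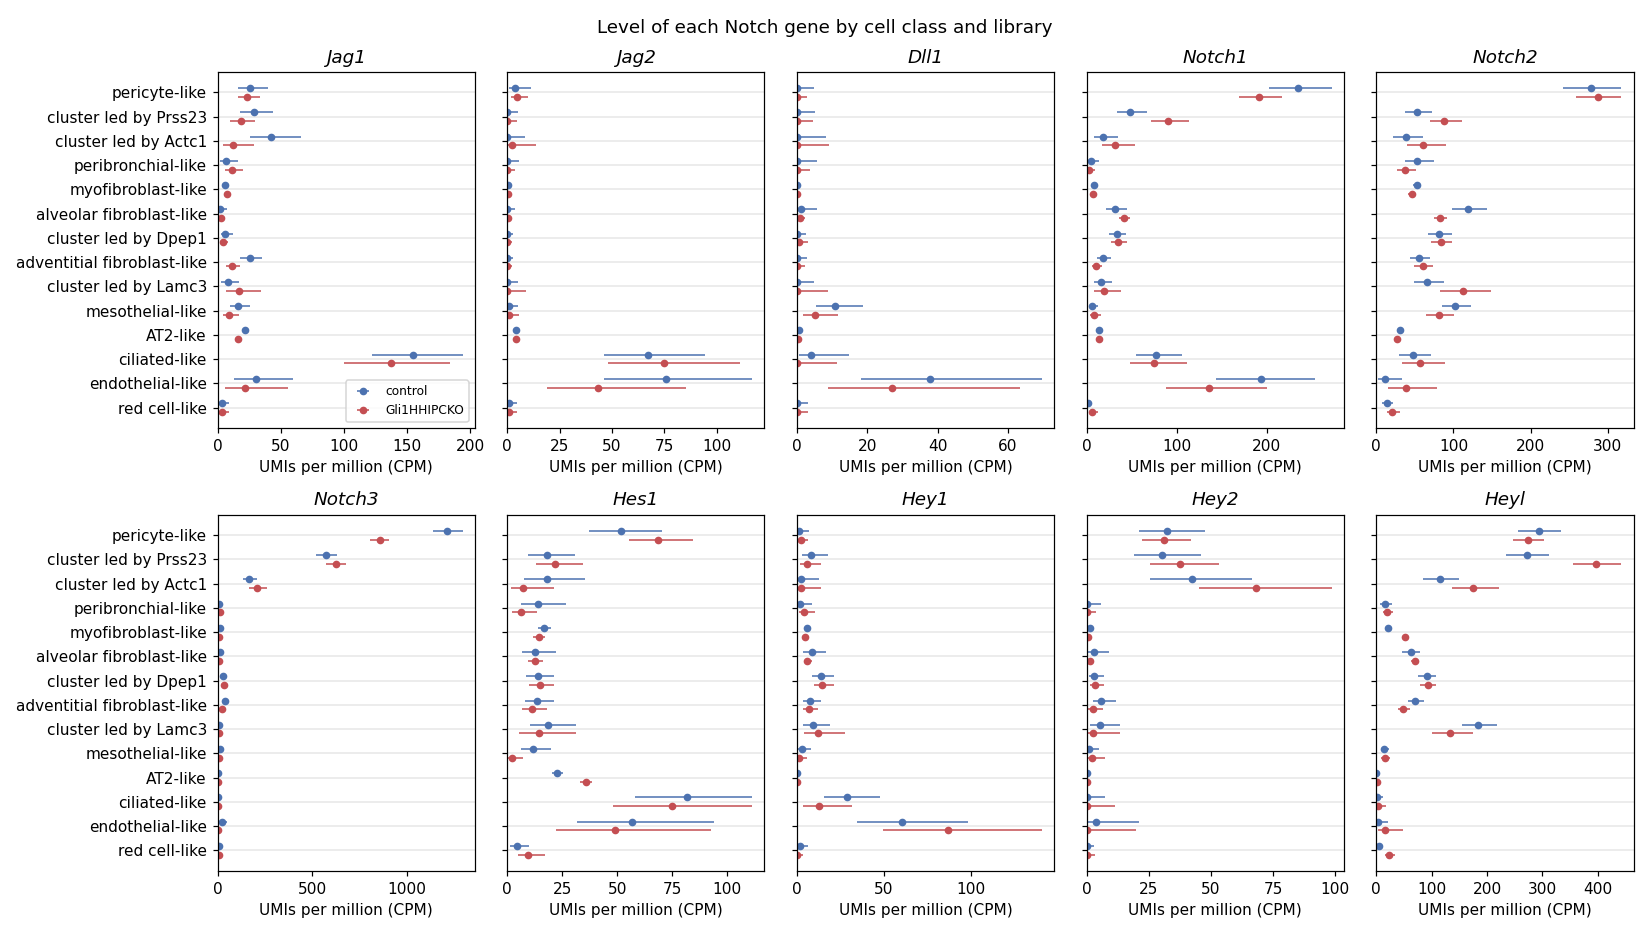
Level of each of the 10 genes in CPM (horizontal axes, each with its own range) in 14 cell classes and clusters of the control (blue) and *Gli1 HHIPCKO* (red) library, with 1 mouse each. Points are CPM of summed UMIs and bars exact Poisson 95% intervals for counting error, with *Notch3* at 1214 and 855 CPM in pericyte-like cells at the top.

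Among the target genes, *Heyl*, which encodes a repressor of the Hey family, had the widest range across stroma. In pericyte-like cells it was at 293 CPM (257 to 334) in the control and 273 CPM (246 to 303) in the *Gli1 HHIPCKO* library. Levels in the cluster led by *Prss23* were 271 and 397 CPM, and the cluster led by *Lamc3* had 184 and 134 CPM. The cluster led by *Actc1* had 114 and 175 CPM, below the cluster led by *Lamc3* in the control and above it in the *Gli1 HHIPCKO* library. Lower in both were the cluster led by *Dpep1* with 90.7 and 92.4 CPM and alveolar fibroblast-like cells with 61.8 and 69.4 CPM. The intervals of pericyte-like cells and the cluster led by *Prss23* overlapped in the control and were apart in the *Gli1 HHIPCKO* library, where the cluster was higher. AT2-like cells were at 0.0680 and 0.655 CPM, from 1 and 11 UMIs.

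The largest ratio of a member in the joined myofibroblast-like cells was that of *Heyl*. It had 174 UMIs and a level of 20.9 CPM (17.9 to 24.3) in the control, and 445 UMIs and 51.4 CPM (46.7 to 56.4) in the *Gli1 HHIPCKO* library. The intervals did not overlap, and the log2 ratio was 1.30 (1.04 to 1.56). The share of myofibroblast-like cells with a *Heyl* UMI was 5.30% in the control and 12.5% in the *Gli1 HHIPCKO* library at median depths of 2841 and 3013 UMIs, and 3.57% and 8.55% after thinning. In AT2-like cells the share was 0.0338% and 0.392%, and thinned 0.0351% and 0.0728%. Red cell-like cells had a *Heyl* UMI in 2.33% and 10.1% of cells, and thinned 0.976% and 4.89%. Their *Heyl* level was 5.11 CPM (1.87 to 11.1) in the control, from 6 UMIs, and 23.5 CPM (15.5 to 34.2) in the *Gli1 HHIPCKO* library, from 27 UMIs. The level of red cell-like cells was thus also higher in the *Gli1 HHIPCKO* library, below that of myofibroblast-like cells there, and the part of free RNA in the difference was not tested.

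Different clusters held most myofibroblast-like cells in the 2 libraries. *Heyl* in the cluster led by *Thbs2* was at 70.5 CPM in its 99 control cells, from 10 UMIs, and at 49.5 CPM in its *Gli1 HHIPCKO* cells. *Heyl* in the cluster led by *Enpp2* was at 11.0 CPM in its control cells, and at 32.3 CPM, from 2 UMIs, in its 28 *Gli1 HHIPCKO* cells. In the ALMF-like cluster the levels were 24.5 and 14.2 CPM, with a log2 ratio of -0.78 (-1.90 to 0.17). In the unsplit cluster led by *Socs3*, which both libraries filled, *Heyl* was at 27.4 and 65.6 CPM with a log2 ratio of 1.26 (0.81 to 1.74). Both values of these parts depended on the clustering. With each library clustered on its own, the log2 ratio in ALMF-like cells was 1.30, the other direction from that above and from -1.54 after thinning, and with no gene held out of the clustering that of the unsplit cluster was 0.20. No direction is therefore read for *Heyl* in ALMF-like cells. The ratio of the joined class kept its direction and stayed past 1.5-fold in all 10 alternatives, and without the unsplit cluster, an alternative chosen after seeing the data, it was 1.25. The 15 immediate early genes had sums in myofibroblast-like cells of 8058 CPM (control) and 11666 CPM (*Gli1 HHIPCKO*), 7 of them higher by at least 1.5-fold, and *Jun* was the most abundant at 1285 and 2105 CPM. Their part in the *Heyl* difference was not tested. The Hedgehog target *Gli1* was at 4.93 and 27.1 CPM and *Ptch1* at 61.5 and 118 CPM in the same cells.

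*Heyl* was past 1.5-fold in 1 further group outside the myofibroblast-like cells, the cluster led by *Actc1*, with a log2 ratio of 0.62 (0.08 to 1.17). It stayed past 1.5-fold in 2 of 6 alternatives and was 0.33 after thinning. In the cluster led by *Prss23* the log2 ratio was 0.55 (0.29 to 0.81). Adventitial fibroblast-like cells went the other way, from 69.8 to 48.4 CPM with a log2 ratio of -0.53 (-0.98 to -0.08). So did the cluster led by *Lamc3*, with a log2 ratio of -0.46 (-0.94 to -0.004), and both fell short of 1.5-fold. Pericyte-like cells had a log2 ratio of -0.10 (-0.35 to 0.14).

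*Hey2*, a Hey repressor of arterial and mural cells, was found in the same groups as *Notch3*, in another order. Its level was 42.5 and 68.2 CPM in the cluster led by *Actc1*, 30.3 and 37.5 CPM in the cluster led by *Prss23*, and 32.3 and 31.0 CPM in pericyte-like cells. Neighbours among these 3 groups overlapped, while the cluster led by *Actc1* and pericyte-like cells were apart in the *Gli1 HHIPCKO* library. Pericyte-like cells were apart from the next group in the order, the cluster led by *Lamc3*, at 5.30 and 2.39 CPM. *Hey2* had no UMI in peribronchial-like cells, which allows up to 4.69 and 3.06 CPM. No ratio of *Hey2* was past 1.5-fold among the 2 groups with at least 50 UMIs, and the log2 ratio in pericyte-like cells was -0.06 (-0.81 to 0.72).

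*Hey1*, the third Hey gene, was highest in endothelial-like cells, at 60.6 CPM (34.7 to 98.5) and 86.9 CPM (49.7 to 141). All 32 *Hey1* UMIs of this class lay in 1 of its 2 clusters, at 110 and 158 CPM, and the other had none. The same cluster held 14 of the 15 *Dll1* UMIs of the class. Ciliated-like cells had 28.5 and 12.5 CPM, with an interval that overlapped with the endothelial-like one in the control and was apart in the *Gli1 HHIPCKO* library. The cluster led by *Dpep1* had 13.8 and 14.7 CPM. In pericyte-like cells *Hey1* was at 1.29 and 2.27 CPM, where *Heyl* and *Hey2* were found. The single ratio with enough UMIs was that of myofibroblast-like cells, with 5.65 and 4.62 CPM and a log2 ratio of -0.29 (-0.94 to 0.35). The endothelial-like class was named from 12 markers, and these were all higher there than in all other cells. The same markers gave the name, so this is no independent check of it. The sum of the markers was 11855 and 13170 CPM, with *Ramp2* the most abundant at 3036 and 3090 CPM.

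*Hes1*, a repressor that also responds to signals other than Notch, was measured in nearly every class. It was at 183 and 81.3 CPM in Schwann-like cells, 81.6 and 74.8 CPM in ciliated-like cells and 51.7 and 68.7 CPM in pericyte-like cells. Neighbours in this order overlapped, while Schwann-like and pericyte-like cells were apart in the control. In AT2-like cells *Hes1* was at 22.7 CPM (20.3 to 25.3) in the control and 35.7 CPM (32.9 to 38.7) in the *Gli1 HHIPCKO* library. The intervals did not overlap, and the log2 ratio was 0.65 (0.46 to 0.85). The share of AT2-like cells with a *Hes1* UMI was 10.2% and 18.8% at their median depths of 4828 and 5731 UMIs, and 4.17% and 6.26% after thinning. Red cell-like cells had 2.33% and 4.04%, and thinned 1.46% and 1.63%.

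AT2-like cells were made of 2 clusters that the libraries filled unequally. The cluster with 2633 control and 1267 *Gli1 HHIPCKO* cells had *Hes1* at 21.8 and 32.2 CPM. The cluster led by *Lcn2*, a secreted defence protein, held 328 and 1540 cells and had *Hes1* at 28.3 and 38.0 CPM. The log2 ratios were 0.56 (0.30 to 0.83) and 0.42 (0.02 to 0.85), so that *Hes1* was higher in the *Gli1 HHIPCKO* library within either cluster but past 1.5-fold in neither. The 15 immediate early genes summed to 6630 and 9668 CPM in AT2-like cells, 8 of them higher by at least 1.5-fold, with *Jund* the most abundant at 1409 and 1788 CPM. Their part in the *Hes1* difference was not tested. In myofibroblast-like cells *Hes1* had a log2 ratio of -0.24 (-0.61 to 0.12), and of -1.03 without the unsplit cluster.

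**Figure D2:**
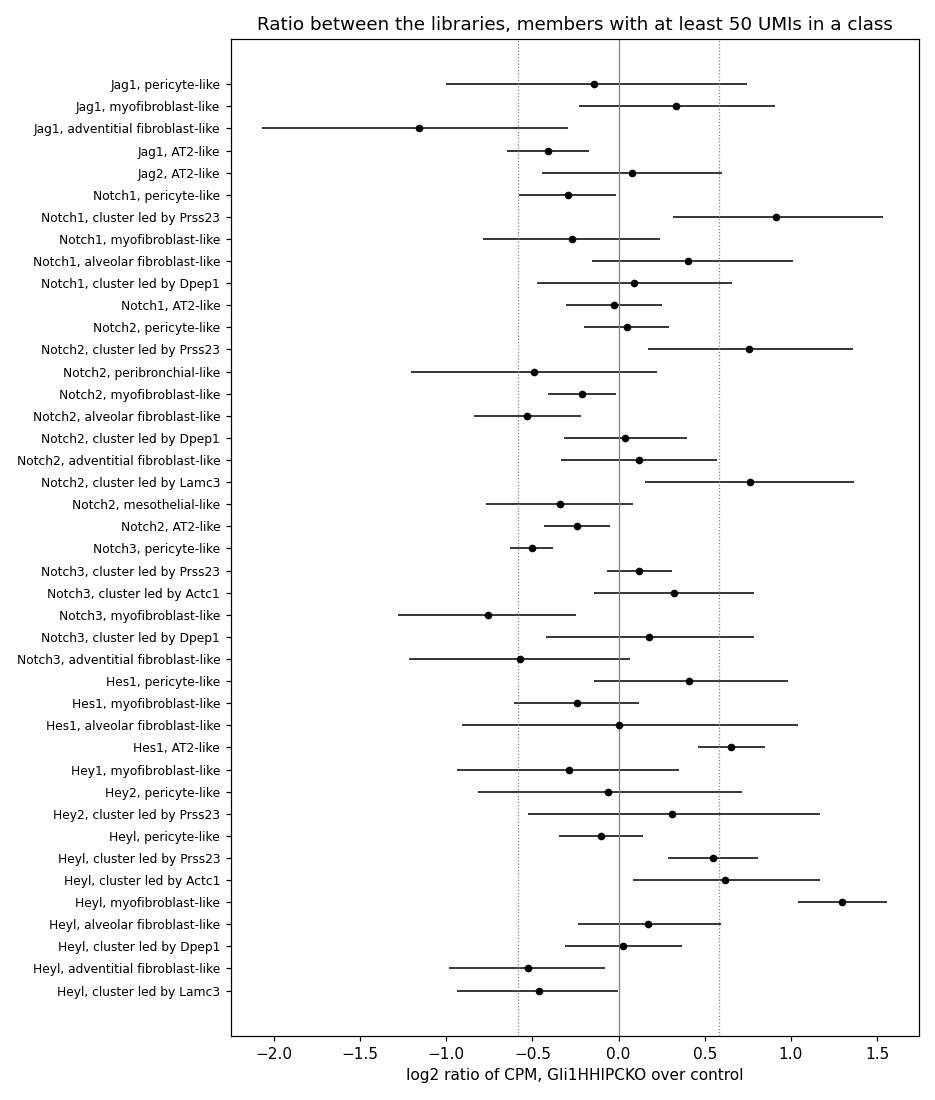
Log2 ratio of CPM, *Gli1 HHIPCKO* over control (horizontal axis), for the 42 pairs of a gene and a class or cluster with at least 50 UMIs over both libraries, the parts of the myofibroblast-like class aside. Bars are exact binomial 95% intervals for counting error, the solid line marks no difference and the dotted lines 1.5-fold, and the values run from -1.16 for *Jag1* in adventitial fibroblast-like cells to 1.30 for *Heyl* in myofibroblast-like cells.

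Counts of members past 1.5-fold were read against the share of all genes past 1.5-fold in the same cells, among genes with at least 50 UMIs. In AT2-like cells 1 of 5 members was past 1.5-fold, *Hes1*, beside 10.1% of all genes. In myofibroblast-like cells it was 2 of 7, *Heyl* and *Notch3*, beside 14.1%. In pericyte-like cells it was 0 of 7, beside 12.8%.

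Adventitial fibroblast-like cells had 1 of 4 members past 1.5-fold, *Jag1*, beside 15.7% of all genes. Alveolar fibroblast-like cells had 0 of 4 beside 18.5%, mesothelial-like cells 0 of 1 beside 16.7%, and peribronchial-like cells 0 of 1 beside 18.3%. The cluster led by *Prss23* had 2 of 5 beside 14.4%, the cluster led by *Dpep1* 0 of 4 beside 14.5%, the cluster led by *Lamc3* 1 of 2 beside 21.1% and the cluster led by *Actc1* 1 of 2 beside 16.6%. Over these 11 classes and clusters, which hold each cell once, 8 of 42 pairs of a member and a class were past 1.5-fold, beside 15.1% of the pairs of all genes. With so few members read in a class, 1 member moves the share widely.

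Within the parts of the myofibroblast-like class, ALMF-like cells had 1 of 3 members past 1.5-fold beside 16.6%, and the unsplit cluster 2 of 3, *Hes1* and *Heyl*, beside 14.4%. DMF-like cells had 5 of 6 beside 13.6%, with log2 ratios above 0 for *Heyl*, *Jag1* and *Notch1* and below 0 for *Notch3* and *Hes1*. That of *Notch1*, 0.69 (-0.15 to 1.58), had an interval that included 0. The DMF-like cells of the libraries came from different clusters, those led by *Enpp2* in the control and by *Thbs2* in the *Gli1 HHIPCKO* library, so cluster and library cannot be told apart there. For example, *Hes1* in DMF-like cells was at 17.0 and 7.31 CPM, with a log2 ratio of -1.21 (-1.84 to -0.60), while the unsplit cluster had 18.6 and 28.6 CPM, a log2 ratio of 0.62 (0.03 to 1.24). This value of the unsplit cluster turned to -1.29 with no gene held out of the clustering and to -0.56 with immediate early genes held out too, so no direction is read from it. In DMF-like cells, *Jag1* and *Heyl* stayed past 1.5-fold in all 10 alternatives. *Notch1*, *Notch3* and *Hes1* fell short of it in 1 or 2, with *Hes1* at -0.50 after thinning. *Jag1* was at 4.19 CPM in control cells of the cluster led by *Enpp2* and 7.58 CPM in *Gli1 HHIPCKO* cells of that led by *Thbs2*. These levels were from 13 and 40 UMIs. In the same cells *Notch1* was at 5.16 and 8.53 CPM and *Notch3* at 11.6 and 6.64 CPM. Red cell-like cells had *Jag1* at 3.40 and 3.48 CPM and *Notch1* at 1.70 and 6.09 CPM. They had *Notch3* at 6.81 and 8.70 CPM and *Hes1* at 4.25 and 9.57 CPM. The ratios of these genes were thus read near the background in at least 1 library.

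In red cell-like cells no member reached 50 UMIs. Among all genes read in them 60.3% were past 1.5-fold, and the median log2 ratio was 0.66. The *Heyl* log2 ratio of these cells, 2.20 (0.90 to 3.77) from 33 UMIs, was above that median and above the 1.30 of myofibroblast-like cells.

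A further list of 55 pathway genes covered other receptors and ligands, glycosyltransferases, secretases, nuclear cofactors and ubiquitin ligases. Most of its shares past 1.5-fold were near or below those of all genes, so the genes named here are given as single values and not as a result about the list. In myofibroblast-like cells 43 of them were read, of which 2 were higher and 2 lower by at least 1.5-fold, beside 14.1% of all genes, and their median log2 ratio was 0.01, against -0.02 over all genes. *Lfng* encodes the lunatic fringe glycosyltransferase that changes which ligands a Notch receptor answers to. It was at 1.32 CPM in the control and 6.81 CPM in the *Gli1 HHIPCKO* library, from 11 and 59 UMIs. The log2 ratio was 2.37 (1.42 to 3.44). *Neurl1a* and *Neurl1b*, ubiquitin ligases of the Neuralized family that act on ligands, differed in direction. *Neurl1a* was higher, at 2.04 and 5.77 CPM, and *Neurl1b* was lower, at 7.69 and 2.19 CPM with a log2 ratio of -1.81 (-2.63 to -1.05). The acetyltransferase gene *Kat2a* had a log2 ratio of -0.61 (-0.94 to -0.28). Among DMF-like cells *Lfng* was the single gene of 40 past 1.5-fold, beside 13.6% of all genes. Its log2 ratio was 1.77 (0.67 to 3.07), from 8 and 45 UMIs. The DMF-like cells of the libraries came from different clusters, so cluster and library cannot be told apart in this value. ALMF-like cells had log2 ratios of 0.66 (-0.20 to 1.46) for *Maml2*, 0.65 (0.13 to 1.15) for *Mib1* and -0.70 (-1.76 to 0.22) for *Kat2a*. These were the 3 of 35 read, beside 16.6% of all genes. The unsplit cluster had log2 ratios of 0.95 (0.20 to 1.75) for *Fbxw7* and -0.64 (-1.29 to 0.01) for *Kat2a*, 2 of 37 read, beside 14.4% of all genes.

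In AT2-like cells 4 of 41 pathway genes were higher and 1 was lower, beside 10.1% of all genes. *Dtx2*, a Deltex ubiquitin ligase, was at 8.70 and 18.2 CPM with a log2 ratio of 1.06 (0.76 to 1.37). *Numbl*, related to the Notch antagonist Numb, had a log2 ratio of 1.35 (0.61 to 2.14), and *Fbxw7*, which marks the Notch intracellular part for degradation, one of 0.76 (0.32 to 1.22). *Kat2a* was again lower, with a log2 ratio of -1.02 (-1.51 to -0.54). The median log2 ratio of the list was 0.11, against 0.01 over all genes.

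The lowest log2 ratio of the list in adventitial fibroblast-like cells was that of *Dlk1*, a Delta-like membrane protein that lacks the domain needed to activate Notch. It was at 193 CPM in the control and 39.0 CPM in the *Gli1 HHIPCKO* library, with a log2 ratio of -2.31 (-2.73 to -1.90). *Adam17*, a protease that can cut receptors at the cell surface, had a log2 ratio of -0.59 (-1.10 to -0.07), and the coactivator gene *Crebbp* one of 0.70 (0.27 to 1.14). These were the 3 of 33 list genes past 1.5-fold in these cells, beside 15.7% of all genes. In alveolar fibroblast-like cells the 3 of 37, beside 18.5%, were *Hes6* at -1.18 (-1.94 to -0.38), *Adam17* at -0.84 (-1.23 to -0.44) and *Ep300* at 0.65 (0.22 to 1.11), all log2 ratios.

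Pericyte-like cells had 1 higher and 2 lower genes of 33, beside 12.8% of all genes. *Eogt*, whose product adds a sugar to Notch receptors, was at 363 CPM in the control and 214 CPM in the *Gli1 HHIPCKO* library, with a log2 ratio of -0.77 (-1.01 to -0.52). *Pofut1*, which encodes the fucosyltransferase that Fringe proteins build on, had a log2 ratio of -0.60 (-1.35 to 0.16), and the secretase subunit gene *Aph1c* one of 0.89 (-0.08 to 1.96). The intervals of the latter 2 included 0. In the cluster led by *Prss23*, the secretase subunit gene *Psenen* had a log2 ratio of -0.82 (-1.24 to -0.41), while *Mib1* had 0.62 (-0.21 to 1.49).

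In the cluster led by *Dpep1*, 5 of 34 list genes were higher and 1 was lower, beside 14.5% of all genes. *Rbpj* itself, the DNA-binding partner of the receptors, was among them, at 35.3 and 57.6 CPM with a log2 ratio of 0.71 (0.21 to 1.22). *Ctbp2* had a log2 ratio of 0.96 (0.37 to 1.58), *Kat2b* one of 0.91 (0.08 to 1.79) and *Eogt* one of -0.60 (-1.41 to 0.20). In the cluster led by *Lamc3*, *Adam10*, which encodes the main protease of ligand-activated receptor cleavage, had a log2 ratio of 0.95 (0.15 to 1.76) and the antagonist gene *Numb* one of 0.78 (0.11 to 1.45). The corepressor gene *Ncor1* had 0.71 (0.25 to 1.19) in the cluster led by *Actc1*, and 0.89 (0.39 to 1.40) in red cell-like cells. In peribronchial-like cells 3 of 24 list genes were higher, beside 18.3% of all genes past 1.5-fold in either direction, and *Maml3* was lower with a log2 ratio of -0.92 (-1.66 to -0.18). The higher ones were *Poglut1* at 0.79 (-0.04 to 1.69), *Snw1* at 0.71 (0.13 to 1.31) and *Dtx3* at 0.70 (0.22 to 1.20). In red cell-like cells *Snw1* was at 1.24 (0.36 to 2.19) and *Dtx3* at 1.94 (1.00 to 2.99), among 6 of 13 list genes that were higher there, beside the 60.3% of all genes. In mesothelial-like cells *Psen2* had a log2 ratio of 0.71 (-0.07 to 1.51) and *Dtx2* one of -0.67 (-1.52 to 0.13), both with 0 inside the interval.

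The levels of the members over the 13 named classes in either library, 26 points in all, were compared with those of all genes outside the 10 members that had at least 200 UMIs by Pearson's r on log2(CPM + 10). The points share libraries, so the values are descriptions. Outside the members, *Notch3* was most like *Cpa1*, *Agtr1a*, which encodes an angiotensin receptor of pericytes, and *Cstdc2*, with r of 0.948, 0.939 and 0.938. *Hey2* was most like *Cpa1*, *Vtn* and *Adamtsl3*, with r of 0.976, 0.967 and 0.957. *Cpa1* was thus first for both outside the members. *Notch3* and *Hey2* themselves had an r of 0.956, which for *Notch3* was above that of *Cpa1*. The clusters led by *Actc1* and *Prss23*, which also held both genes, were not among the points. *Heyl* was most like *Trpc1*, *Hunk* and *2610027K06Rik*, with r of 0.927, 0.917 and 0.910, and *Notch2* was most like *Dipk2a*, *Arhgef17* and *Trpc1*, with 0.884, 0.875 and 0.842.

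The ligands followed other genes. *Jag1* was most like *Cfap298*, a cilium gene, *Dynlt1c* and *Shank2*, with r of 0.855, 0.852 and 0.850. *Jag2* was most like *Adrb1*, *Casz1* and *Ocln*, with 0.943, 0.932 and 0.924, and *Dll1* most like *Podxl*, *Tie1* and *Rapgef3*, with 0.938, 0.923 and 0.915. *Podxl* and *Tie1* are genes of endothelial cells, and podocalyxin is also made by mesothelium. *Notch1* was most like *Itga6*, *Sox13* and *Pcdh1*, with 0.869, 0.840 and 0.833. *Hes1* had the lowest values, with *Rnaset2b*, *Cadm1* and *Glcci1* at 0.813, 0.809 and 0.799, and *Hey1* was most like *Rgs12*, *Ppm1f* and *Acer2* at 0.903, 0.879 and 0.867.

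In the GENCODE vM21 annotation of GRCm38 all 10 members are protein-coding. *Notch3* (ENSMUSG00000038146) lies on chr17:32120820-32166852 on the minus strand and *Dll1* (ENSMUSG00000014773) on chr17:15367354-15376872, minus strand. *Notch1* (ENSMUSG00000026923) is at chr2:26457903-26516663, minus strand, and *Jag1* (ENSMUSG00000027276) at chr2:137081456-137116644, minus strand. *Notch2* (ENSMUSG00000027878) is at chr3:98013527-98150361, plus strand, and *Hey1* (ENSMUSG00000040289) at chr3:8663359-8667256, minus strand. *Heyl* (ENSMUSG00000032744) is at chr4:123233556-123249875, plus strand, and *Hey2* (ENSMUSG00000019789) at chr10:30832359-30842801, minus strand. *Jag2* (ENSMUSG00000002799) is at chr12:112907819-112929776, minus strand, and *Hes1* (ENSMUSG00000022528) at chr16:30064384-30067796, plus strand.

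Hey genes are known targets of RBPJ. The promoters were searched for the letters GTGGGAA, the core of the site that RBPJ binds, and for their complement TTCCCAC. RefSeq promoter windows of 300 bases on GRCm38.p6, from 250 bases before to 50 bases after the gene start, were matched for 7 of the 10 members, with 8 windows. *Hes1*, *Hey1* and *Heyl* were not matched. The *Hey2* window, chr10:30842734-30843033 on the minus strand, was the only one of the 8 that held the letters. It held them on either strand, with no overlap between the matches. Of all 32851 windows, 6.38% held the letters on at least 1 strand. The matches are printed below 5′ to 3′ on the strand of the gene, with the searched letters in capitals, because they are the only ones found in the members. The first, chr10:30842969-30842998, lies outside annotated exons, and the second, chr10:30842766-30842795, overlaps an annotated UTR. A match is a description of the sequence and not a shown binding site.
Hey2, complement: cggtggcaTTCCCACgcctctgccaacgcc
Hey2, letters as given: gctgcagcGTGGGAAagaacctccaggagc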

How the data were processed

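Sorted lung cells of 1 control and 1 *Gli1 HHIPCKO* mouse were measured by droplet single-cell RNA-seq. The deposited counts are raw UMI counts per gene and cell that the authors made with Cell Ranger on mm10. Its version is 6.1.0 per the file headers and 3.1.0 in the submitters' processing notes, and the methods name a 5′ kit where the sample labels name a 3′ kit.

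Filtering kept cells that had 200 to 6000 detected genes and no more than 10% of UMIs from mitochondria (82 control and 235 *Gli1 HHIPCKO* cells left out). Log-normalized counts of 2000 variable genes, 30 principal components, 20 neighbours and Leiden clustering (leidenalg 0.10.2, igraph 0.11.9) at resolution 1 were used, and mesenchymal and airway clusters were clustered again. The members, the pathway list and genes named by the study were held out of the clustering.

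A name needed a score of 0.3, 3 markers in 10% of cells and 2 own markers among the 10 leading genes. A class of another lineage at 0.33 of the score left a cluster unnamed, as did an unlike class of the same lineage at 0.7, low depth, or more leading markers of another class. There were exceptions. AT1 markers were not counted as another lineage, which kept 1 endothelial-like cluster (scores 0.655 and 0.377 for AT1). A cluster high in both ALMF and DMF markers was kept as unsplit myofibroblast-like cells with none of them among its leading genes. The peribronchial-like cluster was named at a score of 0.711 beside a higher 0.741 for DMF. It had 7 own markers and no DMF marker among its 10 leading genes. These rules were set, and then revised, after the clusters and pooled Notch levels by cluster had been seen, and before ratios by class were computed. The choice to compare 4 unnamed clusters on their own was also made after seeing the data. Clusters with mixed markers, as doublets would have, were left out of the classes and held 13.2% of control and 13.7% of *Gli1 HHIPCKO* cells.

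UMIs were summed per class and library and divided by the class total, as CPM. Levels have exact Poisson, ratios and shares exact binomial (Clopper-Pearson) 95% intervals, and for 0 UMIs the level that 3 counts would set is stated. Classes with at least 100 cells in each library were compared for genes with at least 50 UMIs, and called where past 1.5-fold. Thinning drew 2000 UMIs per cell and left out 2206 control and 2383 *Gli1 HHIPCKO* cells. Sums and intervals were made with scipy 1.17.1, pandas 2.3.3 and numpy 2.4.6 in Python 3.11.15, and plots with matplotlib 3.10.9. The ratio and its interval were tried on simulated Poisson counts with set changes. These counts hold counting error only, so spread between mice, cell composition and free RNA were not tested there.

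All members are named in the text. Of the pathway list, up to 3 genes at each end past 1.5-fold in each class were named, and for each member the 3 genes with the highest r; 1 result of the list is not reported here. The members and lists were chosen with earlier results of these data known. The alternatives changed the cell filter, doublets, total, scaling, average, clustering, held-out genes, depth, UMI minimum and fold.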

Additional observations from a re-analysis of the deposited data

Results flagged for a closer look

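For 3 members, some log2 ratios of *Gli1 HHIPCKO* over control were past 1.5-fold upward and others downward, depending on the cell class or cluster. None of these differences between classes was tested, since there was 1 library per group. *Jag1* had a log2 ratio of -1.16 in adventitial fibroblast-like cells and 0.94 among DMF-like cells. *Hes1* had log2 ratios of 0.65 in AT2-like cells and 0.62 in the unsplit myofibroblast-like cluster, against -1.21 among DMF-like cells. In DMF-like cells *Jag1* was near the red cell-like level in the control, as was *Hes1* in the *Gli1 HHIPCKO* library. *Heyl* had log2 ratios of 1.30 in myofibroblast-like cells, 1.86 among DMF-like cells, 1.26 in the unsplit cluster and 0.62 in the cluster led by *Actc1*, against -0.78 in ALMF-like cells. The interval of the last value included 0, and with each library clustered on its own the value was 1.30, so that no direction is read for *Heyl* in ALMF-like cells. That of *Hes1* in the unsplit cluster turned to -1.29 with no gene held out of the clustering and to -0.56 with immediate early genes held out too. The DMF-like cells of the libraries came from different clusters, so cluster and library cannot be told apart in the DMF-like values. Within the DMF-like cluster led by *Thbs2* the log2 ratio of *Heyl* was -0.51 (-1.41 to 0.57). Within the one led by *Enpp2* it was 1.56 (-1.54 to 3.52).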

How the results depend on the processing

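No paired analysis was possible because each group has 1 library. The limits are those of 1 mouse per group that also differed in sex, of rebuilt cell names, and of depth, since 54 pairs of a member and a class had at least 50 UMIs and no ratio could be read for *Dll1*. Of the 16 ratios past 1.5-fold, *Heyl* in myofibroblast-like cells stayed past it in all 10 alternatives (1.20 to 1.41), as did *Hes1* in AT2-like cells (0.59 to 0.69), *Jag1* in DMF-like cells (0.92 to 1.29) and *Heyl* in DMF-like cells (1.16 to 2.13). *Jag1* in adventitial fibroblast-like cells did in 9 of 10 (-1.20 to -0.55), and *Notch3* in myofibroblast-like cells in 7 of 10 (the smallest change -0.36). *Notch1* and *Notch2* in the cluster led by *Prss23* did in all 6 alternatives that kept the classes, and *Heyl* in the cluster led by *Actc1* in 2 of 6 (0.33 to 0.66). The log2 ratio of *Heyl* in ALMF-like cells was 1.30 with each library clustered on its own. In the unsplit cluster that of *Heyl* was 0.20 with no gene held out of clustering, and that of *Hes1* was -1.29 then and -0.56 with immediate early genes held out too. The highest named class was the same under the 4 other clusterings for 8 of the 10 members; with each library clustered on its own, *Hey2* and *Heyl* were highest in vascular smooth muscle-like cells, at 47.4 and 323 CPM. Thinning lowered 92 of 108 shares and left 30 of 108 within their interval. The other total left 105 of 108 levels within their interval.

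Counts of members past 1.5-fold that changed by over 1.5 times follow, and the causes were not tested except that other UMI minimums, thinning and other clusterings change how many members are read. Among smaller changes, DMF-like cells had 4 as the mean over cells, at resolution 0.5 and with immediate early genes held out too, and the cluster led by *Prss23* had 3 as the mean over cells and at 20 UMIs. Without the unsplit cluster, an alternative chosen after seeing the data, myofibroblast-like cells had 3. With the stricter cell filter, adventitial fibroblast-like cells had 2. With doublet-like cells left out, adventitial fibroblast-like cells had 3, the cluster led by *Actc1* 0 and the unsplit cluster 1. With median of ratios, adventitial fibroblast-like cells had 2 and the cluster led by *Actc1* 0. With the mean over cells, ALMF-like cells had 0, adventitial fibroblast-like cells 3 and the cluster led by *Actc1* 0. After thinning, ALMF-like cells had 0 of 1 read, DMF-like cells 1 of 3, alveolar fibroblast-like cells 2 of 3, the cluster led by *Actc1* 0 of 2 and the cluster led by *Prss23* 1 of 3, while 14 of the 16 ratios stayed past 1.5-fold whatever their UMIs. At resolution 0.5, alveolar fibroblast-like and myofibroblast-like cells had 1 each. With each library clustered on its own, ALMF-like cells had 2, DMF-like cells 3, alveolar fibroblast-like cells 2, and myofibroblast-like, peribronchial-like and pericyte-like cells 1 each. With no gene held out, ALMF-like and DMF-like cells had 2 each. With immediate early genes held out too, ALMF-like cells had 3, and alveolar fibroblast-like cells, myofibroblast-like cells and the unsplit cluster 1 each. At a minimum of 20 UMIs, ALMF-like, adventitial fibroblast-like and mesothelial-like cells had 2 each, alveolar fibroblast-like and peribronchial-like cells 1 each, the cluster led by *Actc1* 5 and the unsplit cluster 4. At a minimum of 200 UMIs, ALMF-like cells and the cluster led by *Prss23* had 0, and DMF-like cells, myofibroblast-like cells and the unsplit cluster 1 each. At a fold of 2, ALMF-like cells, AT2-like cells and the clusters led by *Actc1*, *Lamc3* and *Prss23* had 0, DMF-like cells 3, and myofibroblast-like cells and the unsplit cluster 1 each.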
